A study of Mus musculus with 6 samples.

Results

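The genes described here were expressed in mouse sensory neurons with 2 alternative last exons, that is, with transcripts that ended in 2 different places. They were chosen from the authors' isoform table, in which each isoform (1 transcript form of a gene) has a level in FPKM, fragments per transcript scaled for its length and for the mapped fragments of the library. A gene was taken when it had a name, lay on 1 chromosome and strand, and had at least 2 isoforms averaging 2 FPKM or more across the 6 libraries whose last exons did not overlap and whose 3′ ends lay more than 1000 bases apart. The rule found 779 genes among the 17022 gene names of the table. It used mean levels over all libraries and no difference between groups. An end that is high in 1 group alone can still reach such a mean.

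The RNA came from neurons that were laser-microdissected from dorsal root ganglia of the lumbar levels 3, 4 and 5, which hold the cell bodies of sensory neurons with axons in the sciatic nerve. The mice were male C57Bl/6, labelled both adult and 4 to 6 weeks old, with no genetic change or drug given in the labels. In the crush group (3 libraries) the sciatic nerve was crushed for 10 seconds, in the sham group (3 libraries) it was only exposed for 10 seconds, and the ganglia of the operated side were taken 7 days later. Whether each library stands for its own animal or animals is not stated in the labels, so p-values reflect only how much these libraries vary, and part of that may be technical.

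A gene can end its transcript in more than 1 place when splicing joins the upstream exons to an earlier last exon, or when cleavage and polyadenylation occur inside an intron before the more distant last exon is made. The earlier end is called proximal and the farther one distal. Where the coding sequence runs into the last exon, the choice changes the end of the protein, and in neurons such choices are known to set where a protein is anchored or whether a receptor carries its signalling part. Cleavage factors, the U1 small nuclear ribonucleoprotein, which shields early cleavage sites, and neuronal RNA-binding proteins are known to act on this choice.

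The 2 ends of a gene can be seen in the coding sequence of its last exons. For 4 well-known genes the last coding bases are given here from GENCODE M21 transcripts, matched to the isoforms of the files by the lengths of their exons and introns and not by position, with the stop codon in capitals. They are shown because each pair gives 2 different protein ends whose roles are known.
Cdc42 proximal: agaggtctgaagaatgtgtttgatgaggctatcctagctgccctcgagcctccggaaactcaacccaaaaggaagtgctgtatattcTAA
Cdc42 distal: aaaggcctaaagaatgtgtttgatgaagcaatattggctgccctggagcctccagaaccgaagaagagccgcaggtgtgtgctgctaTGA
Lamp2 proximal: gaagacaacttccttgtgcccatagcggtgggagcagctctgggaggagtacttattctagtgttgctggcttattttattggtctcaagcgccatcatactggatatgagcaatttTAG
Lamp2 distal: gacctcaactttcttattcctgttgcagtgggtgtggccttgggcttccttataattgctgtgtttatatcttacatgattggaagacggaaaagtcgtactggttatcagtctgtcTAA
Ntrk2 proximal: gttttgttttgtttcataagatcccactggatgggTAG
Ntrk2 distal: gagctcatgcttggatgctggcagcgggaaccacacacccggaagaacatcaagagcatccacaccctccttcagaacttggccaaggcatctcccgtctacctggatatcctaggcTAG
Ncam1 proximal: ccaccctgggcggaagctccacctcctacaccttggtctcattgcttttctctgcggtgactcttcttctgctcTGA
Ncam1 distal: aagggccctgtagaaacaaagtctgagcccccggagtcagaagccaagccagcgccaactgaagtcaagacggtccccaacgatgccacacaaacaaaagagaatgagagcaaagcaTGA

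Both Cdc42 stretches are the whole 90 coding bases of their last exon. They were identical at 48 of the first 60 bases and at 11 of the last 30, so the difference lies mostly at the tail, where the lipid that holds this small GTPase to membranes is attached. For the distal exon of Ntrk2 and both exons of Lamp2 only the last 120 coding bases are shown, and likewise for the distal exon of Ncam1. In all 8 exons shown the last exon of the files began where the matched GENCODE exon begins, by the length of the intron before it.

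The 2 last exons were of like abundance over the genes as a whole, and there was no common order between them. Like abundance is partly built in, since both ends had to reach 2 FPKM and the pair with the highest lower level was taken. The distal share, the distal FPKM as a percentage of the FPKM of both ends, had a median of 51.9% over the 779 genes, with 10% of genes under 14.6% and 10% above 86.8%. The distal end led in 408 genes, and 521 genes had a distal share between 20% and 80%. The 3′ ends lay a median of 7102 bases apart. In 33 genes they were over 100 kb apart, and 2 genes exceeded 1 Mb: Macrod2, and Rragd, where the 2 ends lie so far apart (90502495 bases) that 2 loci carry the same name.

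The way the 2 ends were arranged differed between genes. The proximal last exon lay inside an intron of the distal transcript in 305 genes, overlapped an internal or earlier exon of it in 383 and lay outside its span in 91. The distal share had a median of 56.6% in the first of these classes, 42.0% in the second and 70.1% in the third. The distal last exon was the longer one in 525 genes, with a median of 875 bases against 208 for the proximal one.

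The name "alternative last exon" fits these genes to different degrees. In 675 genes the 2 transcripts shared exon bases, while in 104 they shared none, and in 461 genes their first exons differed too, so the start and the end of the transcript then differed together. Both transcripts were assembled from the reads by the authors' software in 480 genes, both were reference transcripts in 35, and 264 genes had 1 of each. A last exon was shorter than 20 bases in 105 genes, and in 208 genes the proximal last exon had no base outside the exons of the distal transcript. At least 1 last exon lay with over 50% of its bases inside exons of another named gene in 181 genes, and the library preparation is not stated to keep strand, so reads of overlapping genes cannot be told apart there. In 217 genes the transcripts shared exons and each last exon had at least 100 bases of its own. That group was formed after the values were seen and is used only as a description.

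Both last exons could be matched to 2 GENCODE protein-coding transcripts in 107 genes, and in 89 of these the coding sequence ended inside the last exon on both sides. Among matched last exons whose length was within 100 bases of that in GENCODE, the hexamer AATAAA, the usual signal for cleavage, was found on the transcript strand in the last 40 bases of 37 of 52 proximal exons (71.2%) and 34 of 51 distal exons (66.7%). The share over all protein-coding transcripts of the annotation, many of which are not complete at their end, was 39.3%. A match is a description of the letters and not of a used site.

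The values at the edge of the rule were close together. Members just inside the level threshold included Pdcd10 (lower end at a mean of 2.0006 FPKM) and Gm71 (2.0009 FPKM), and genes just outside it included Pak1ip1 (1.995 FPKM) and Col23a1 (1.9941 FPKM). Just inside the distance threshold were Slc30a5 (1001 bases) and Use1 (1003 bases), and just outside were Pea15a (968 bases) and Cherp (957 bases).

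Before the comparison, 1 library has to be described. Sham 2 stood apart from the other 5: it gave the lowest or the highest of the 6 distal shares in 542 of the 779 genes, against 167 to 272 for the other libraries, and its distance from the mean of the other sham libraries had a median of 5.4 percentage points, against 1.75 to 3.48 points for the rest. It had no common direction, with a median signed distance of 0.157 points. Sample weights estimated by limma gave it 0.147 in the fit of ratios and 0.162 in the fit of gene totals, the lowest of the 6. Values without it are given beside the results it moves most.

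The 4 injury genes checked, Atf3, Sprr1a, Gal and Npy, all rose after crush, with a median log2 change of 2.18. Of the neuronal markers, 2 of 11 fell and none rose, with summed levels of 7722 to 9734 FPKM in sham and 7714 to 8986 FPKM in crush. Of the macrophage markers, 9 of 10 rose, with summed levels of 70.6 to 82.9 FPKM in sham and 153 to 167 FPKM in crush. None of the 11 Schwann cell, 8 satellite glia, 7 fibroblast and 7 endothelial and mural markers passed. The summed fibroblast markers were at 121 to 165 FPKM in sham and 189 to 201 FPKM in crush. The part of these cells in the results below was not tested, and in such tissue fewer cells of a type and less RNA per cell cannot be told apart.

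After crush the choice of last exon moved little. The log2 ratio of the distal to the proximal level, computed from FPKM + 1, was tested with limma over all 4979 genes with at least 2 expressed isoforms, and 1 gene passed at a Benjamini-Hochberg adjusted p under 0.05, which is 0.0201% of the genes tested. It is 1 of the 779 genes described here (0.128%), Afg3l2. At an unadjusted p under 0.05 stood 22 of the 779 genes (2.82%), against 2.63% of all genes tested and 2.62% of the 4129 genes whose isoforms share or overlap in their last exon. The median log2 change over the 779 genes was -0.0068, with 379 above 0, and the median over all genes tested was 0.0061.

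**Figure D1:**
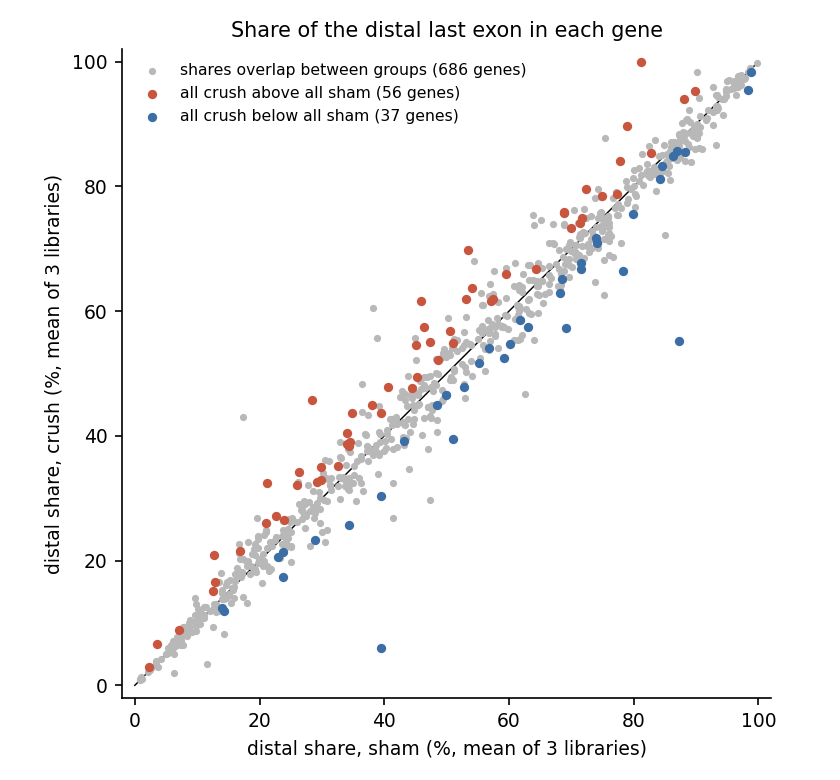
Each point is a gene, with its mean distal share (%) over the 3 sham libraries on the x axis and over the 3 crush libraries on the y axis; the line marks equal shares. Most of the 779 genes lie near the line, and those whose groups do not overlap lie on both sides of it, 56 above and 37 below.

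The size of these changes in the ratio from FPKM + 1 can be bounded in most genes. The added 1 makes changes of low genes appear smaller, so the bound does not hold for the plain ratio. The lower end was under 5 FPKM in 366 of the 779 genes, of which 277 were within the bound given next. The 95% interval of the log2 ratio change lay within 1 log2 unit of 0 in 618 of the 779 genes (79.3%), against 70.1% of all genes tested. The median size of the change in distal share was 1.79 percentage points. It was under 5 points in 664 genes and over 10 points in 25. The leading last exon by group mean differed between sham and crush in 25 genes, and in 7 of these the groups did not overlap.

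**Figure D2:**
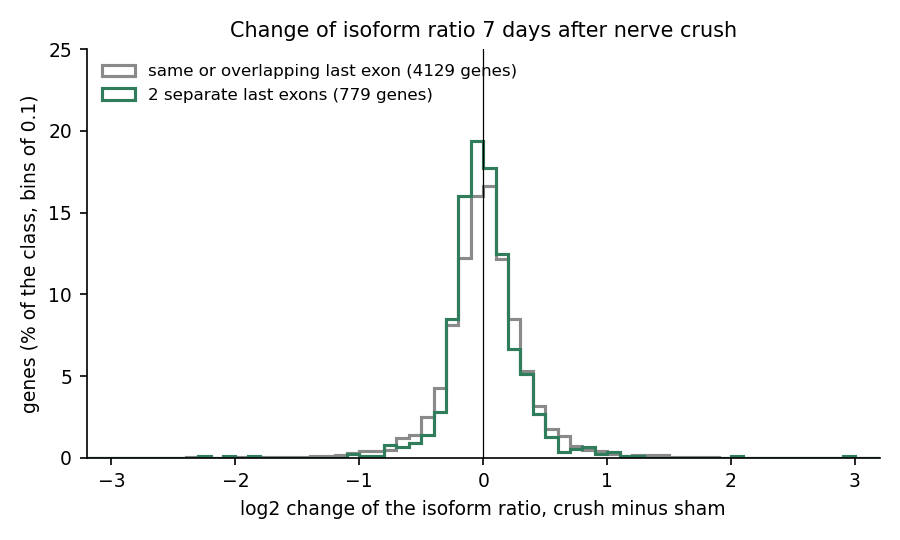
Share of genes (% of the class) by log2 change of the isoform ratio, crush minus sham, in bins of 0.1, for the 779 genes with separate last exons and the 4129 genes whose isoforms share or overlap in their last exon. Both classes centre on 0, with medians of -0.0068 and 0.0097.

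The crush and sham shares did not overlap in 93 of the 779 genes (11.9%), against 8.52% of all 4979 genes and 7.94% of the genes with a shared last exon. The distal share was higher in 56 of them (all genes 4.82%) and lower in 37 (all genes 3.7%). Without sham 2 such separation was found in 218 of the 779 genes (28.0%) and in 22.8% of all genes. An exact permutation test of 3 against 3 libraries cannot go below 0.1, so separation alone passes no test. In the 217 genes with shared exons and last exons of their own, 44 were separated (20.3%, all genes 8.52%). The distal share was higher in 27 of the 217 (12.4%, all genes 4.82%). In 189 the interval lay within 1 log2 unit of 0 (87.1%, all genes 70.1%).

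Afg3l2, a subunit of a protease in the inner membrane of mitochondria, was the gene that passed. It lies on the minus strand of chromosome 18. Its proximal end was at 4.10, 4.29 and 4.36 FPKM in sham 1 to 3 and was listed at 0 in all 3 crush libraries. The mean of this end over the 6 libraries, 2.13 FPKM, met the rule of 2 FPKM only through sham. Its distal end was at 17.8, 19.99 and 17.4 FPKM in sham and at 25.7, 24.4 and 29.9 FPKM in crush. The distal share was thus 81.2% ± 1.2 (SD, n = 3) in sham and 100% in every crush library, and the groups did not overlap at either end. The log2 ratio changed by 2.90 with a standard error of 0.16 (limma, adjusted p = 0.00633), a value that depends on the pseudocount because 1 end is at 0. The proximal level passed its own test in limma (log2 change -2.39, adjusted p = 0.00825) and the distal level did not (0.51, adjusted p = 0.177). The gene total did not pass in limma (0.06, adjusted p = 0.791). Both last exons of Afg3l2 lie with all of their bases inside exons of Tubb6, a tubulin gene of the opposite strand, and the authors' own comparison of both isoforms carries the status FAIL. The ratio passed in 11 of the 16 alternatives that gave a log2 ratio for this pair, with adjusted p in limma from 0.000461 to 0.453. It did not pass with the replicate number as a block (adjusted p = 0.453), without sham 1 (adjusted p = 0.0897), without sham 3 (0.0960), without crush 1 (0.109) or without crush 3 (0.0732). A limma fit of the share in percent, not among the 16, did not call the gene either.

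The next genes are those of largest change in distal share whose groups did not overlap. None of them passed the ratio test, where each had an adjusted p of 0.998, and they are given as values by the role of the gene. The distal share by library is plotted for all of them with Afg3l2.

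**Figure D3:**
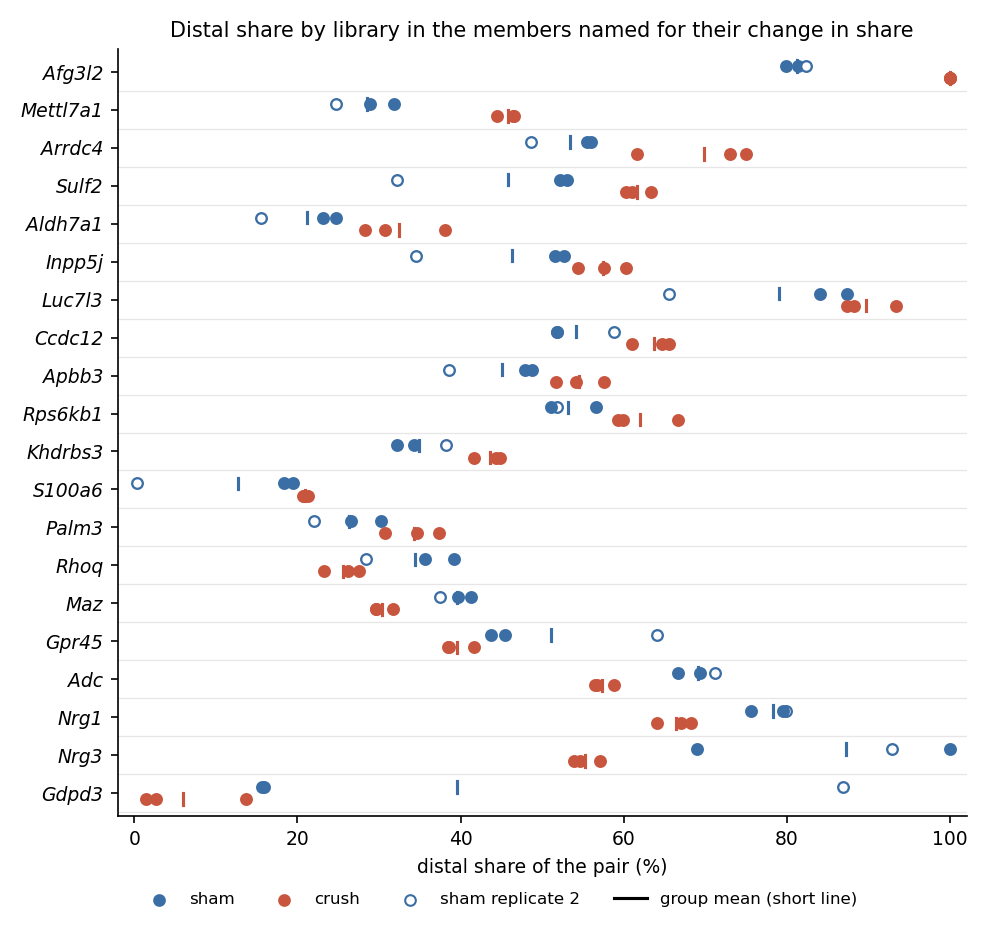
Distal share (%) in each library for the 20 genes named for their change in share; filled circles are libraries, the open circle is sham 2, and short lines are group means (n = 3). The groups do not overlap in any of the 20 genes, since that is how they were chosen. Sham 2 sits far from the other sham libraries in Gdpd3, S100a6, Sulf2, Luc7l3, Gpr45 and Inpp5j, among others.

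Neuregulins are growth factors that act through ErbB receptors, and both Nrg1 and Nrg3 were among these genes. The distal share of Nrg1 was 75.6%, 79.9% and 79.5% in sham and 67.0%, 68.3% and 64.1% in crush. The change in log2 ratio was -0.72, with an interval from -1.11 to -0.34, and was -0.71 without sham 2. The proximal last exon of Nrg1 (chr8:32919938-32929154 in mm9, minus strand) is 9217 bases long and lies in an intron of the distal transcript, whose assembled last exon (chr8:32917971-32917998) has only 28 bases. The proximal level was 4.40, 2.22 and 3.52 FPKM in sham and 5.06, 4.43 and 4.78 FPKM in crush, while the distal level was 13.6, 8.85 and 13.6 FPKM in sham and 10.3, 9.53 and 8.52 FPKM in crush. The proximal level was apart between the groups by a narrow margin, and the distal level overlapped.

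Nrg3 had a distal share of 69.0%, 92.8% and 100% in sham and 54.7%, 57.1% and 54.0% in crush. Its proximal end was at 5.13, 0.661 and 0.000313 FPKM in sham and at 5.52, 5.19 and 4.85 FPKM in crush, so sham 1 lay among the crush libraries. The transcripts of Nrg3 share no exon base and the distal last exon has 2 bases, so the pair cannot be read as 2 known ends.

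Rhoq, Rps6kb1 and Inpp5j act in signalling inside the cell. Rhoq, a small GTPase of the Cdc42 family, had a distal share of 35.6%, 28.4% and 39.2% in sham and 27.6%, 26.2% and 23.2% in crush. Its proximal end rose from 34.6, 30.4 and 31.4 FPKM to 68.7, 67.8 and 81.9 FPKM (log2 change 1.15, limma adjusted p = 0.0358), and its distal end stood at 19.1, 12.1 and 20.3 FPKM in sham and 26.1, 24.05 and 24.8 FPKM in crush. The gene as a whole rose, and the ratio change was -0.60, with an interval from -1.11 to -0.10. Without sham 2 the ratio change was -0.79.

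Rps6kb1, the kinase that phosphorylates ribosomal protein S6, had a distal share of 56.5%, 51.9% and 51.1% in sham and 59.9%, 59.2% and 66.6% in crush, with last exons of 7184 and 130 bases. Inpp5j, an inositol phosphatase, had 51.6%, 34.6% and 52.7% in sham and 57.6%, 54.4% and 60.2% in crush. Its change of 11.1 points fell to 5.26 points without sham 2, and its distal last exon lies wholly inside exons of Pla2g3 on the other strand.

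Among RNA-binding and transcription factors, Khdrbs3, a splicing regulator of neurons, had a distal share of 32.2%, 38.2% and 34.3% in sham and 44.3%, 41.7% and 44.9% in crush. Its proximal end (chr15:68923331-68923948, plus strand) was at 23.0, 20.3 and 19.4 FPKM in sham and 22.8, 24.4 and 24.4 FPKM in crush. Its distal end (chr15:68931371-68931486) was at 10.9, 12.5 and 10.2 FPKM in sham and 18.1, 17.4 and 19.8 FPKM in crush, so the groups did not overlap at the distal end. That level did not pass its limma test (adjusted p = 0.0969), and the ratio change was 0.49, with an interval from 0.12 to 0.87.

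Maz, a zinc finger transcription factor, had a distal share of 41.3%, 37.5% and 39.7% in sham and 29.7%, 31.7% and 29.6% in crush. Both of its last exons lie inside exons of Mvp, the gene for the major vault protein, on the same strand. The proximal last exon of Maz has no base outside the exons of its distal transcript. Luc7l3, a protein tied to the U1 complex, had 87.4%, 65.5% and 84.0% in sham and 88.2%, 93.3% and 87.4% in crush. Its change rests on sham 2 (10.7 points with it and 3.94 without), and its proximal last exon has 3 bases. Ccdc12, a protein of the spliceosome, had 51.8%, 58.8% and 51.8% in sham and 61.1%, 64.6% and 65.5% in crush, from transcripts that share no exon base.

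Several of the other genes are metabolic. In Mettl7a1, a methyltransferase-like protein of lipid droplets, the distal share was 31.9%, 24.7% and 28.9% in sham and 44.5%, 46.4% and 46.5% in crush, and the groups lay well apart. The proximal end (chr15:100143425-100145275, plus strand) was at 15.5, 19.9 and 16.9 FPKM in sham and 16.2, 15.6 and 15.2 FPKM in crush. The distal end (chr15:100169654-100175217) rose from 7.23, 6.54 and 6.84 FPKM to 13.0, 13.5 and 13.2 FPKM (log2 change 0.86, limma adjusted p = 0.0389). The ratio change was 0.99, with an interval from 0.58 to 1.41 and an unadjusted p of 0.001.

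Adc, an older symbol for the antizyme inhibitor gene Azin2 of polyamine metabolism, moved the other way. Its distal share was 69.4%, 71.2% and 66.7% in sham and 56.4%, 56.8% and 58.8% in crush. The proximal end (chr4:128619953-128620898, minus strand) stood at 17.9, 21.8 and 20.6 FPKM in sham and at 35.2, 35.8 and 39.5 FPKM in crush, and the distal end (chr4:128609256-128609735) at 40.4, 53.9 and 41.1 FPKM against 45.7, 47.0 and 56.4 FPKM. Only the proximal end was separated between the groups. The ratio change was -0.71, with an interval from -1.03 to -0.38, and -0.63 without sham 2.

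Aldh7a1, an aldehyde dehydrogenase of lysine breakdown, had a distal share of 23.2%, 15.6% and 24.8% in sham and 38.1%, 30.8% and 28.3% in crush. Gdpd3, a phosphodiesterase of lysophospholipids, showed the largest difference of means, 39.5% against 5.94%, and it came from 1 library. Its distal share was 15.7%, 86.9% and 15.9% in sham and 1.44%, 13.7% and 2.68% in crush, and the sham mean without sham 2 was 15.8%. Sulf2, a sulfatase of heparan sulfate chains, had 52.2%, 32.2% and 53.1% in sham and 61.1%, 60.3% and 63.3% in crush, a change of 15.7 points that was 8.94 points without sham 2. Its distal last exon lies inside exons of Ncoa3 on the other strand, and the authors' table flags both isoforms as not reliably estimated in some library. The proximal last exon of Sulf2 has no base outside the exons of its distal transcript.

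The remaining genes of this group have roles in receptors, adaptors and calcium binding. Arrdc4, an arrestin-like adaptor, had a distal share of 56.0%, 48.6% and 55.5% in sham and 74.9%, 73.0% and 61.6% in crush, from 2 reference transcripts. Only 16 of the 273 bases of its proximal last exon lie outside the exons of the distal transcript. Its proximal level was 3.73, 5.795 and 3.95 FPKM in sham and 2.07, 2.40 and 3.36 FPKM in crush, and the ratio change was 0.81, with an interval from 0.23 to 1.40. The orphan receptor Gpr45 had 43.8%, 64.0% and 45.4% in sham and 41.6%, 38.6% and 38.4% in crush, and its change of -11.5 points was -5.05 points without sham 2. Apbb3, an adaptor that binds the amyloid precursor protein, had 48.7%, 38.5% and 47.9% in sham and 57.6%, 54.2% and 51.7% in crush (9.46 points, and 6.196 without sham 2), and its proximal last exon lies inside an exon of Slc35a4 on the other strand. Palm3, a paralemmin of the cell membrane, had 30.3%, 22.0% and 26.6% in sham and 37.4%, 34.7% and 30.7% in crush. Its change of 7.96 points was 5.81 points without sham 2, and its proximal last exon has no base outside the exons of the distal transcript.

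S100a6, a calcium-binding protein, was also 1 of the 6 most abundant pairs. Its distal share was 18.4%, 0.302% and 19.5% in sham and 20.7%, 20.9% and 21.3% in crush. Without sham 2 the change was 2.05 points, against 8.3 points with it.

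The genes known for 2 protein ends gave the most readable picture, and most of them kept close to their sham share. Cdc42 was among the most abundant, with a proximal end, the brain-type form, at 135, 150 and 131 FPKM in sham and 132, 127 and 135 FPKM in crush. The distal end, the form found in most tissues, was at 92.0, 86.7 and 92.6 FPKM in sham and 100.3, 98.1 and 107 FPKM in crush. The distal share was 40.5%, 36.6% and 41.3% in sham and 43.3%, 43.6% and 44.2% in crush, so the groups did not overlap, with the crush libraries within 1 point of each other. The ratio change was 0.25, with an interval from -0.03 to 0.53 (limma, unadjusted p = 0.0716), and 0.16 without sham 2. The 2 exons (proximal chr4:136877730-136878534, distal chr4:136875614-136877107, minus strand) lie 2116 bases apart at their 3′ ends.

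Lmna encodes the nuclear lamins, with lamin C from the proximal end and lamin A from the distal end. The lamin C end was at 27.2, 37.0 and 28.0 FPKM in sham and 28.9, 30.6 and 36.3 FPKM in crush, with overlap. The lamin A end was at 14.3, 17.7 and 15.3 FPKM in sham and 20.4, 19.8 and 20.1 FPKM in crush, with none. The distal share went from 34.0% ± 1.6 to 38.7% ± 2.9 (SD, n = 3), and the ratio change was 0.27, with an interval from -0.09 to 0.64.

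Lamp2, a protein of the lysosome membrane, has a proximal end for the form LAMP2A, which takes part in chaperone-mediated autophagy, and a distal end for LAMP2B. The distal share was 48.7%, 49.2% and 47.4% in sham and 44.97%, 45.8% and 44.1% in crush, below sham in all 3 crush libraries. The proximal end was at 63.0, 49.9 and 63.9 FPKM in sham and 67.3, 63.0 and 61.6 FPKM in crush, and the distal end at 59.8, 48.2 and 57.5 FPKM against 55.0, 53.2 and 48.6 FPKM. Neither end was separated alone. The ratio change was -0.20, with an interval from -0.46 to 0.06.

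Ntrk2 encodes the receptor for brain-derived neurotrophic factor, with a truncated form without the kinase from the proximal end and the full kinase form from the distal end. The truncated end was at 15.4, 13.7 and 19.4 FPKM in sham and 16.7, 15.5 and 15.2 FPKM in crush. The kinase end was at 8.65, 7.92 and 7.85 FPKM in sham and 7.67, 7.70 and 6.83 FPKM in crush, below sham by a narrow margin and without passing its test. The truncated form was the higher one in all 6 libraries, and the distal share was 33.8% ± 4.3 in sham and 31.9% ± 1.1 in crush (SD, n = 3). The ratio change was -0.10, and its interval, from -0.54 to 0.34, leaves out a change of 1 log2 unit either way.

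Ncam1, the neural cell adhesion molecule, has a lipid-anchored form from the proximal end and transmembrane forms from the distal end. The distal share was 48.3%, 64.0% and 58.2% in sham and 54.1%, 55.2% and 52.1% in crush, with crush inside the sham range. The ratio change was -0.17, with an interval from -0.75 to 0.41, and 0.03 without sham 2. The authors' table flags both Ncam1 isoforms as not reliably estimated in some library.

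**Figure D4:**
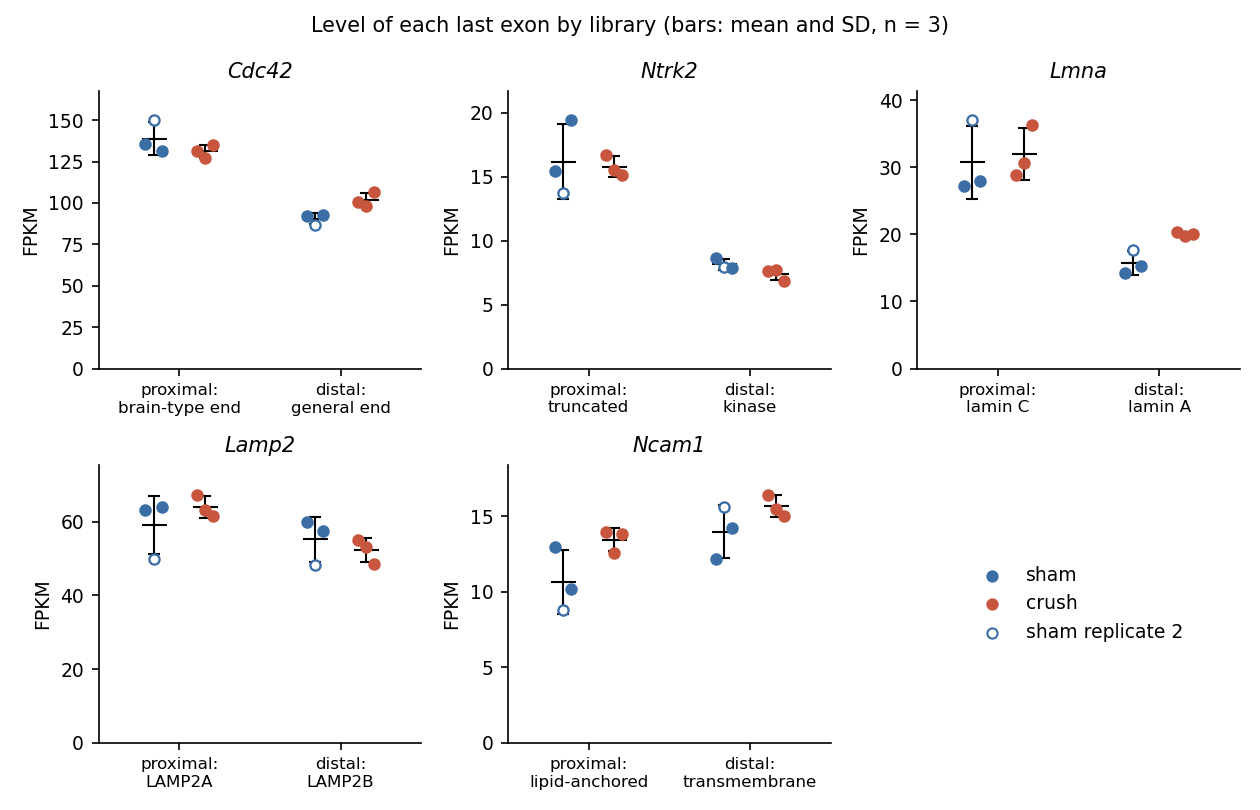
FPKM of the proximal and the distal end in each library (filled circles; the open circle is sham 2), with mean and SD (n = 3), for 5 genes whose ends give known protein forms. The distal ends of Cdc42 and Lmna are higher in all 3 crush libraries than in any sham library, the kinase end of Ntrk2 is lower in all 3 by a narrow margin, and the other ends overlap.

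Cacna1a, the pore subunit of P/Q-type calcium channels, was the last gene on the list of known genes. Its distal share was 87.7%, 95.3% and 88.2% in sham and 82.7%, 85.9% and 89.99% in crush, with overlap, and its transcripts share no exon base. Of the 20 genes on that list 5 met the rule (Cacna1a, Cdc42, Ncam1, Nrg1 and Ntrk2), and none of the 20 gene totals passed (gene totals are summed over all isoforms; 3.78% of the 12289 genes tested passed). The median log2 change of the list was 0.01, and 4 genes had an unadjusted p under 0.05.

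Of the 107 genes with both ends in GENCODE most also kept close to their sham share. In 98 the interval of the ratio change lay within 1 log2 unit of 0, and in 90 the share moved by under 5 points. The shares were separated in 15 genes (14.0%, all genes 8.52%), in 10 with a higher distal share in crush (9.35%, all genes 4.82%) and in 5 with a lower one (4.67%, all genes 3.7%). The ratio test called none after adjustment (0.0201% of all genes), and 2 had an unadjusted p under 0.05 (1.87%, all genes 2.63%), Arrdc4 and Lrrc49. Besides Arrdc4, Cdc42, Lmna and Lrrc49, the distal share was higher in Olfm1, Rabgap1l, Sin3b, Trio and Wnk2, among others. It was lower in Lamp2, Casz1, Cp, Gprc5c and Sept8. These genes and the group were picked after the values were seen.

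Olfm1, an olfactomedin of brain and ganglia whose distal form alone carries the olfactomedin domain, had a distal share of 46.6%, 39.9% and 46.8% in sham and 48.1%, 48.1% and 46.8% in crush, so 2 of the sham libraries lay close to crush. Its change of 3.22 points was 0.951 points without sham 2. Casz1, a zinc finger transcription factor, had 67.8%, 68.3% and 68.4% in sham and 62.7%, 65.0% and 61.0% in crush. Sept8, a septin of the cytoskeleton, had 65.8%, 60.4% and 62.9% in sham and 59.1%, 57.2% and 56.0% in crush. The sham libraries of Casz1 were within 1 point of each other and the crush libraries were spread more widely.

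Trio, a guanine nucleotide exchange factor, had a distal share of 47.0%, 41.4% and 47.5% in sham and 50.9%, 48.4% and 49.1% in crush. Wnk2, a kinase that regulates chloride transporters, had 43.2%, 32.4% and 38.6% in sham and 46.8%, 43.7% and 44.3% in crush. Without sham 2 the change went from 4.21 to 2.25 points in Trio and from 6.89 to 4.06 points in Wnk2. In both, the lowest of the 6 libraries was sham 2, and the nearest sham and crush libraries were within 1 point.

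The most abundant pairs showed how tight or loose the estimate could be. Fgf12, an intracellular factor that binds sodium channels, had a distal share of 51.9%, 56.0% and 53.8% in sham and 55.0%, 54.6% and 54.0% in crush, and its interval of the log2 ratio change ran from -0.23 to 0.31. The pair of 2310044H10Rik had 65.3% ± 1.6 and 64.9% ± 1.3 (SD, n = 3), with an interval from -0.29 to 0.24. In Fgf12 the crush libraries lay inside the sham range. In both genes the transcripts share no exon base, so neither pair can be read as 2 known ends. The distal last exon of 2310044H10Rik also lies wholly inside exons of Mybpc2 on the same strand.

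Gng3, a neuronal G protein gamma subunit, was looser: its distal share was 52.1%, 28.3% and 45.4% in sham and 45.7%, 41.8% and 39.5% in crush. The interval ran from -0.85 to 0.95, and the change of 0.05 became -0.37 without sham 2. The proximal last exon of Gng3 has no base outside the exons of its distal transcript. Tubb2b, a neuronal beta tubulin, had 31.4%, 22.8% and 32.2% in sham and 32.3%, 26.4% and 21.8% in crush, and its distal last exon lies inside exons of Bphl on the other strand. Both groups spanned the same range in Tubb2b.

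Whole-gene changes after crush were set beside the levels of both ends. Of the 779 gene totals, 22 passed (2.82%, against 3.78% of the 12289 genes tested): 14 rose (1.80%, all genes 2.38%) and 8 fell (1.03%, all genes 1.39%). In all 22 both last exons moved in the direction of the total by their means, and in 18 the share changed by under 5 points, 12 of those that rose and 6 of those that fell. The total contains both ends, so agreement in direction is partly built in. An end passed its own test in 3 of those that rose and 1 of those that fell. Some ends moved little, such as the distal ends of Inpp5j and Galnt14 (log2 change -0.12 in each). Of the isoform sets, 0.271% of 9958 passed, and 6 of the 1558 sets of the 779 genes did, each in a different gene: 4 proximal sets and 2 distal sets. No gene had both ends passing. These counts depend on single libraries: the numbers of totals that rose and fell were 25 and 40 when sham 2 was left out, 4 and 1 for sham 1, 3 and 1 for sham 3, 1 and 1 for crush 1, 5 and 2 for crush 2, and 3 and 1 for crush 3. The count of sets called over the whole table, 27, became 82 when sham 2 was left out, 5 for crush 2, 1 for crush 3 and 0 for sham 1, sham 3 or crush 1.

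Adam8, a membrane metalloprotease, rose most, from 5.601 ± 0.74 to 20.1 ± 4.8 FPKM in total (log2 change 1.66, limma adjusted p = 0.00717). Its proximal end went from 2.01, 2.57 and 2.20 FPKM to 7.95, 8.12 and 13.9 FPKM and its distal end from 1.24, 1.40 and 0.742 FPKM to 5.63, 4.77 and 6.34 FPKM. Both ends were separated between the groups, and the share overlapped. The distal end, at 1.13 FPKM in sham and 5.58 FPKM in crush by mean, met the rule of 2 FPKM only through crush. The proximal last exon has no base outside the exons of the distal transcript. Adam8 is also expressed by macrophages, whose markers rose in these libraries, and their part in this result was not tested.

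Cacna2d1, the calcium channel subunit that gabapentin binds, went up from 49.4 ± 9.0 to 106 ± 4.4 FPKM (limma, log2 change 1.1, adjusted p = 0.0123). Its proximal end went from 5.72, 5.02 and 5.33 FPKM to 14.3, 12.1 and 16.8 FPKM and its distal end from 51.1, 34.7 and 45.2 FPKM to 86.6, 91.0 and 92.9 FPKM. This end held a share of 88.9% ± 1.4 in sham and 86.3% ± 1.8 in crush (SD, n = 3), so the distal end led throughout. The transcripts of Cacna2d1 share no exon base, so the pair cannot be read as 2 known ends. Ecel1, a neuronal endopeptidase that nerve damage induces, was at 12.7 ± 3.3 in sham and 35.1 ± 2.3 FPKM in crush (limma, log2 change 1.42, adjusted p = 0.0136), with distal shares of 11.1% ± 1.9 and 12.6% ± 1.1 (SD, n = 3). Plin2, a coat protein of lipid droplets, was at 28.0 ± 3.7 in sham and 61.4 ± 11 FPKM in crush (limma, log2 change 1.1, adjusted p = 0.0147), with shares of 39.1% ± 2.5 and 37.0% ± 2.8. The proximal last exon of Ecel1 has no base outside the exons of its distal transcript. Its distal end, at 1.09 FPKM in sham and 3.57 FPKM in crush by mean, met the level rule only through crush. The authors' table flags both Plin2 isoforms as not reliably estimated in some library, and the distal last exon of Plin2 has 38 bases. In Cacna2d1, Ecel1 and Plin2 a 2-fold or larger rise left the share within 4 points of its sham mean.

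Rhoq, described above, was the rise with the largest change in share. The other genes that rose were Gnpda2, Cbln2, Sema4f, ENSMUSG00000073540, Riok3, 3632451O06Rik, Sh3glb1, Arrb1 and Erf, with log2 changes from 0.32 to 0.81. Sema4f, a membrane semaphorin, showed the weight of sham 2 again: its distal end was at 14.7, 2.48 and 11.3 FPKM in sham and 17.2, 13.1 and 12.8 FPKM in crush, and the change in its distal share went from 0.709 points to -11.6 points without that library.

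Lrrc49, a leucine-rich repeat protein tied to tubulin modification, fell most, from 103 ± 2.7 to 62.5 ± 4.1 FPKM (limma, log2 change -0.72, adjusted p = 0.00717). Its proximal end went from 94.4, 99.2 and 100.1 FPKM to 63.3, 55.3 and 57.4 FPKM, and its distal end was at 2.37, 1.91 and 2.71 FPKM in sham and 1.88, 1.83 and 1.73 FPKM in crush. Distal shares were small throughout, with 2.32% ± 0.39 in sham and 3.01% ± 0.18 in crush (SD, n = 3). Pla2g7, a lipase of platelet-activating factor, fell from 179 ± 11 to 131 ± 5.1 FPKM with a share of 86.2% in both groups. Bnip3, a protein of mitochondrial turnover, fell from 31.8 ± 1.2 to 25.1 ± 0.13 FPKM with shares of 89.5% ± 0.17 and 89.0% ± 1.5. Pacsin1, Galnt14, Inpp5j and Gm7271 fell too, with log2 changes from -0.55 to -0.35.

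**Figure D5:**
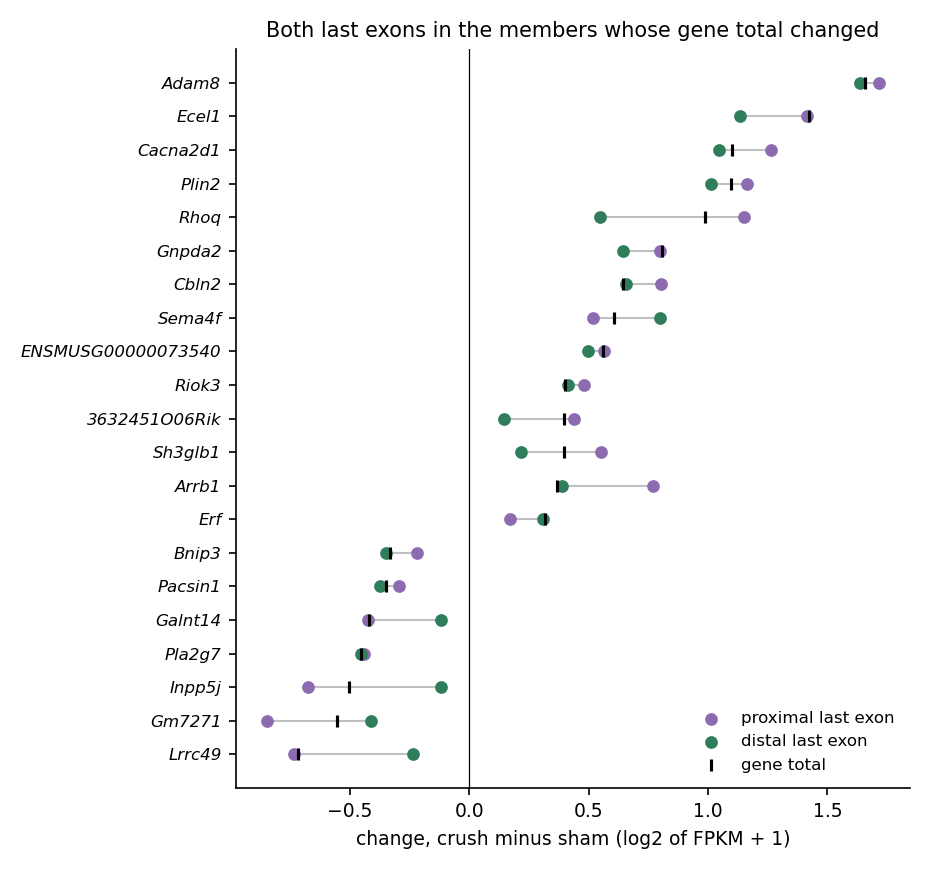
Log2 change (crush minus sham, log2 of FPKM + 1) of the proximal end, the distal end and the gene total for 21 of the genes whose total passed the test. In each gene both ends lie on the same side of 0, and the widest gaps between ends are in Rhoq, Inpp5j and Lrrc49.

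The proteins known to act on the choice of an end changed little in total. None of the 23 cleavage and polyadenylation factors passed (all genes 3.78%), with a median log2 change of 0.06 and 1 at an unadjusted p under 0.05, Pabpc1, a poly(A)-binding protein (limma, 0.22, adjusted p = 0.153). None of the 12 U1 and elongation factors passed either, with a median of 0.02 and none at an unadjusted p under 0.05; the smallest p was that of Leo1 (limma, 0.08, adjusted p = 0.644). Of 33 RNA-binding regulators tested, 2 rose and none fell, with a median of 0.10.

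Srrm4, a splicing factor of neurons, rose from 3.91, 2.93 and 3.52 FPKM to 5.17, 5.66 and 5.38 FPKM (log2 change 0.53, limma adjusted p = 0.0374). Khdrbs2, a relative of Khdrbs3, rose from 2.42, 2.21 and 2.52 FPKM to 3.40, 3.37 and 3.30 FPKM (limma, 0.37, adjusted p = 0.0433). In both the groups did not overlap, and both calls held without sham 2 (limma adjusted p = 0.0150 and 0.0305). They were lost without any other library (adjusted p in limma from 0.0612 to 0.192) and with an isoform minimum of 1 FPKM (0.0892 and 0.200).

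Some of these regulators carry 2 last exons themselves, among them Cstf3, Cpsf6, Pabpc1, Rbbp6, Snrnp70, Paf1, Hnrnpa1, Hnrnpu, Tardbp, Qk and Khdrbs3. Khdrbs3, given above, was the only one of those named with separated shares. Rbbp6, a protein of the cleavage complex, had a distal share of 22.4%, 20.4% and 19.2% in sham and 26.7%, 21.7% and 23.9% in crush. Qk, a STAR-family RNA-binding protein, had 20.6%, 9.14% and 20.3% in sham and 19.5%, 20.7% and 23.3% in crush. Cstf3, a cleavage stimulation factor in which an early end is known, ranged from 13.0% to 40.2% in sham and from 22.4% to 49.8% in crush, and both of its last exons lie inside exons of Tcp11l1. The shares of Rbbp6, Qk and Cstf3 overlapped between the groups.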

How the data were processed

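Levels were taken as FPKM per isoform and library from the authors' deposited table, made with TopHat 1.3.2, Cufflinks 1.1.0 and Cuffdiff 1.2.1 on mm9, per the submitters' processing notes. The authors also deposited their own crush-against-sham test of each isoform, as p-value, q-value and a log fold change that was read as a score because infinite values stand as extreme numbers. These were used only where the authors' table is named. Exon positions came from the authors' exon file. FPKM keeps no read counts, so library depth is unknown and no interval for counting error is given. Per the labels, the libraries were barcoded and mixed over 3 lanes, and no other batch is given in the sources used here.

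For each of 4979 genes, 2 isoforms with separate last exons were taken as anchors, those whose lower mean FPKM was highest, or the 2 most abundant isoforms where last exons overlapped. Other isoforms of at least 2 FPKM were added to the anchor whose last exon they overlap. log2(distal + 1) minus log2(proximal + 1), the level of each set and the gene totals (mean of at least 1 FPKM, 12289 genes) were tested with limma 3.58.1 in R 4.3.3 (moderated variance with a trend, 2-sided), with Benjamini-Hochberg adjustment over each whole table at 0.05. Adding 1 FPKM before the log makes the changes of low genes appear smaller than they are. The ratio fit was also run on simulated data. All libraries had equal noise there, so that run says nothing on a library like sham 2. Last exons were matched to GENCODE M21 transcripts by at least 2 equal exon or intron lengths. Same-numbered libraries were not treated as paired in the main fits. The other steps ran in Python 3.11.15 with pandas 2.3.3, and plots were drawn with matplotlib 3.10.9.

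Named are the members that passed the ratio test, then those of largest change in share without overlap between groups until 20 were named, every member on the list of genes known for alternative last exons, the 6 most abundant pairs, and from each regulator list the genes that passed or the one of smallest adjusted p. Genes shown for their protein ends, genes with changed totals and regulators with 2 last exons were added after their values were seen. Results on some of these genes are not reported here. The members, the lists and the tests were chosen with earlier results of these data known.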

Additional observations from a re-analysis of the deposited data

How the results depend on the processing

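Over all genes tested the ratio test called 1 gene, and 0 with an isoform minimum of 5 FPKM, with the share in percent (chosen after seeing the data) or with a replicate block. Limma's diffSplice, which tests all isoforms of a gene, called 12, of which 4 are among the 779 genes: Afg3l2, Auh, Klhl5 and Vti1b. Among the 779 genes the ratio test called 0 under the former settings, 0 with reference isoforms only (51 genes) and 0 among the genes matched to GENCODE. Leaving out 1 library gave 0 to 2 genes in all and 0 to 1 among the 779.

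Separated shares, 93 of 779 as reported (11.9%), numbered 43 with an isoform minimum of 5 FPKM. They numbered 8 with reference isoforms only and 58 with 3′ ends over 5000 bases apart. These settings hold fewer genes, so a lower count is not a lower share. In GENCODE pairs the number was 15 of 107 (14.0%). It was 44 of 217 (20.3%) in genes whose ends share exons and have at least 100 bases of their own in each last exon. Without sham 2 it was 218 of 779 (28.0%, all genes 22.8%). The last 3 settings were chosen after seeing the data. The median ratio change was 0.0911 with reference isoforms only, 0.0140 with sample weights and -0.0135 to 0.000930 without 1 library.

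Gene totals called, 464 as reported, numbered 295 and 127 with isoform minimums of 1 and 5 FPKM, 1429 with sample weights and 53 to 1173 without 1 library. Members' totals that rose and fell numbered 5 and 3 with a minimum of 5 FPKM and 30 and 46 with sample weights; 3 fell with upper-quartile scaling. Without 1 library 1 to 25 rose and 1 to 40 fell. Isoform sets called, 27 as reported, numbered 15 with a pseudocount of 0.1, 16 with a minimum of 5 FPKM, 633 with sample weights and 0 to 82 without 1 library.

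Same-numbered libraries correlated in their deviations from the group means at 0.326, -0.197 and -0.345. The highest value was that of sham 2 with crush 3 (0.487). With 3 libraries in a group and sham 2 far from the rest, these values cannot decide whether the libraries were paired. With the replicate block 0 genes were called by ratio, 0 sets, 50 totals, 2 members' totals that rose and 0 that fell.

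With sample weights the ratio change turned to 0.123 in Ntrk2 and -0.215 in Gng3. Without 1 library it ranged from -0.395 to 0.0305 in Ncam1, -0.373 to 0.357 in Gng3, -0.365 to 0.0444 in Tubb2b, -0.0202 to 0.0966 in Fgf12 and -0.0781 to 0.0219 in 2310044H10Rik. The other genes whose ratio was recomputed under each alternative, those chosen by the naming rule, kept the direction of that ratio. The causes were not tested.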
